A study of Mus musculus with 5 samples.

Results

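Zfp42, Nr0b1, Esrrb, Klf2, Klf4, Klf5 and Tbx3 are transcription factors of the naive state of mouse embryonic stem cells, and they were chosen by name for that role. All 7 were among the 28642 rows of the gene table, and all 7 were among the 10878 rows with enough counts to be tested. RNA came from ES-D3, an established line of mouse embryonic stem cells. The cells carried a lentiviral short hairpin and had been selected with puromycin. There were 2 libraries with different hairpins against Trim28, 2 labelled as carrying hairpins against Wtx and 1 control library with a hairpin against GFP. All groups shared culture with leukemia inhibitory factor (LIF) on irradiated feeder cells, which were reduced by a replating step before RNA was extracted. The labels name no promoter, clone or separate culture, so the p-values reflect only how the hairpins of a target varied, and some of that variation may be technical. Single-molecule sequencing without amplification gave between 280614 and 1901563 estimated counts per library.

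The naive state is the condition of the early epiblast, and mouse embryonic stem cells hold it in culture while LIF is present. LIF acts through its receptor Lifr and the shared chain Il6st on the kinase Jak1 and the factor Stat3, and Klf4 is a known target of Stat3. The naive factors form a network around Pou5f1, Sox2 and Nanog in which members bind and maintain each other's genes, and loss of Klf2, Klf4 and Klf5 together disrupts self-renewal in mouse cells. Zfp42, Esrrb and Nr0b1 are switched off when the cells leave the naive state for the primed epiblast, a step driven by signalling of the growth factor FGF through the kinase ERK.

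The hairpin targets are shown because 2 separate sites stand behind the shTrim28 pair and a single site behind the shWtx pair. The capitals mark the 20 of 21 bases that the hairpins against Wtx share.
shTrim28 replicate 1: ccaccagtcttcaaggtcttt
shTrim28 replicate 2: ccgcatgttcaaacagttcaa
shWtx replicate 1: gCCAGACATGCAAGAAGCAAA
shWtx replicate 2: CCAGACATGCAAGAAGCAAAt
On GRCm38 the first lies in coding sequence of exon 12 of Trim28 at chr7:13029440-13029460 on the plus strand, and the second in coding sequence of exon 16 at chr7:13030559-13030579. The other pair lies in coding sequence of exon 2 of Amer1, the current name of Wtx, at chrX:95426292-95426312 and chrX:95426291-95426311 on the minus strand.

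Levels are given in CPM, the read count scaled by each library's effective size. Trim28 had 65.3 and 48.3 CPM in shTrim28 replicates 1 and 2, 400 and 396 CPM in the libraries labelled shWtx and 783 CPM in the control. It was lower in the libraries labelled shWtx as well (log2 fold change −0.97, adjusted p = 0.0108). Wtx, listed as Fam123b, had 26.3 and 16.5 CPM in the libraries labelled shWtx (19 and 6 counts), against 14.3 CPM in the control (8 counts). A lower level of the target was not seen there, so those libraries are called by their label. The 95% interval of the log2 fold change, −0.64 to 1.94, holds 0 and a moderate fall. Chemoreceptor genes, which stem cells are not known to use, summed to 2342 and 1519 CPM of the unscaled totals in shTrim28, 4445 and 3851 in the libraries labelled shWtx and 333 in the control. The stem cell factors Pou5f1, Sox2 and Nanog were counted in every library. Of 20 fibroblast genes fixed as markers of feeder cells, 19 or 20 had counts in each library, and together they stood at 4869 and 5503 CPM in shTrim28, 2324 and 2693 CPM in the libraries labelled shWtx and 2296 CPM in the control. In such bulk RNA, fewer stem cells and less of a transcript per stem cell cannot be told apart, and the part of feeder cells in the results below was not tested.

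The first comparison asked how the naive factors stood after knockdown of Trim28, the corepressor that KRAB zinc finger proteins bring to their target sites. Of the 7 factors, 6 fell in shTrim28 relative to the control, all but Klf4. Genes were tested by the quasi-likelihood method of edgeR, at 0.05 for p adjusted over all genes by the Benjamini-Hochberg method. Of all genes tested, 6.53% passed, with 2.26% lower and 4.27% higher, and of genes of 20 to 400 CPM on average, the range that holds all 7 factors, 2.87% were lower. The median log2 fold change was −1.72 over the 7 factors and 0.16 over all genes. Every factor stood lower in both shTrim28 libraries than in the control, as did 30.7% of all genes and 34.3% of those of 20 to 400 CPM.

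Zfp42, also called Rex1, encodes a zinc finger protein related to Yy1 and is the usual marker of naive cells. It had 112 and 82.5 CPM in shTrim28 replicates 1 and 2, 364 and 358 CPM in the libraries labelled shWtx and 729 CPM in the control. The groups did not overlap, with shTrim28 lowest and the control highest. Exact 95% Poisson intervals, which cover counting error only, ran from 76.4 to 160 CPM and from 69.7 to 97.0 CPM in shTrim28, and from 660 to 803 CPM in the control. The log2 fold change in shTrim28 against the control was −2.98 (SE 0.28, adjusted p = 1.08e-07). The mean CPM in shTrim28 was 13.4% of that in the control. Part of the transcript, 13.8% of its words of 32 bases, also occurs in the pseudogene Zfp42-ps1, so some reads may have been shared with it.

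Nr0b1, also called Dax1, is an orphan nuclear receptor without a classical DNA-binding domain. It had 3.63 and 2.81 CPM in shTrim28, 27.6 and 55.1 CPM in the libraries labelled shWtx and 77.0 CPM in the control. These levels rest on 1 and 5 counts in shTrim28 and 43 in the control, with exact 95% intervals of 0.0919 to 20.2 CPM, 0.911 to 6.55 CPM and 55.7 to 104 CPM. Both shTrim28 libraries lay below the other 3. The interval of shTrim28 replicate 1 overlapped that of shWtx replicate 1 (20 counts, 16.9 to 42.7 CPM). Nr0b1 had a log2 fold change of −4.64 in shTrim28 against the control (SE 0.57, adjusted p = 4.12e-06). Its mean CPM in shTrim28 was 4.18% of that in the control. At the rate of the chemoreceptor genes per base of transcript, 24.1% and 21.5% of its few counts in shTrim28 would be background, against 0.177% in the control. That share stayed at or below 5.31% for each of the other 6 factors in every library.

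Esrrb, an orphan nuclear receptor that binds DNA and holds up the naive network, had 39.9 and 28.1 CPM in shTrim28. It had 84.3 and 68.8 CPM in the libraries labelled shWtx and 176 CPM in the control. The order was that of Zfp42, with no overlap between the groups. The log2 fold change in shTrim28 was −2.50 (SE 0.34, adjusted p = 2.05e-05). Tbx3, a T-box factor that acts beside Klf4 in the LIF response, had 50.8 and 38.7 CPM in shTrim28, 94.0 and 99.1 CPM in the libraries labelled shWtx and 138 CPM in the control. Its shTrim28 libraries were lowest and the control highest, and its log2 fold change in shTrim28 was −1.72 (SE 0.34, adjusted p = 0.00161). The noncoding gene Tbx3os1 overlaps Tbx3 on the other strand, and 1.72% of the Tbx3 words of 32 bases occur in transcripts of that gene, so their reads may not have been told apart.

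The Krüppel-like factors share 3 zinc fingers at the C-terminus and bind GC-rich sites. Klf5, which is needed in the early embryo for the inner cell mass and trophectoderm, had 131 and 88.1 CPM in shTrim28, 126 and 165 CPM in the libraries labelled shWtx and 306 CPM in the control. Its log2 fold change in shTrim28 was −1.58 (SE 0.30, adjusted p = 0.00122). Klf2 had 102 and 91.5 CPM in shTrim28, 102 and 63.3 CPM in the libraries labelled shWtx and 206 CPM in the control. For both genes the control was highest and the hairpin groups overlapped each other. Klf2 fell by 1.12 in shTrim28 (SE 0.31, adjusted p = 0.0285), a call that was lost without shTrim28 replicate 2 (adjusted p = 0.091), without shTrim28 replicate 1 (0.34), with no filter on low counts (0.348) and with the DESeq2 Wald test (0.107). Klf4, a target of Stat3 that fibroblasts also express, had 218 and 138 CPM in shTrim28, 153 and 218 CPM in the libraries labelled shWtx and 247 CPM in the control. Its log2 fold change in shTrim28 was −0.56 (SE 0.31, 95% interval −1.20 to 0.08, adjusted p = 0.335), and the interval holds both 0 and a fall by 1. The value was −0.19 without shTrim28 replicate 2 and −0.84 without shTrim28 replicate 1. Klf4 was the one factor of the 7 that did not pass.

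Without shTrim28 replicate 1, the control and shTrim28 replicate 2 were left with the shWtx pair as the only replicates, and edgeR called 0 of all genes (1675 at an unadjusted p under 0.05) and 0 of the 7 factors (5 at an unadjusted p under 0.05). The log2 fold changes of the factors were then between −4.71 for Nr0b1 and −0.843 for Klf4. The DESeq2 Wald test called 3 of the 5 factors to which it gave an adjusted p.

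**Figure D1:**
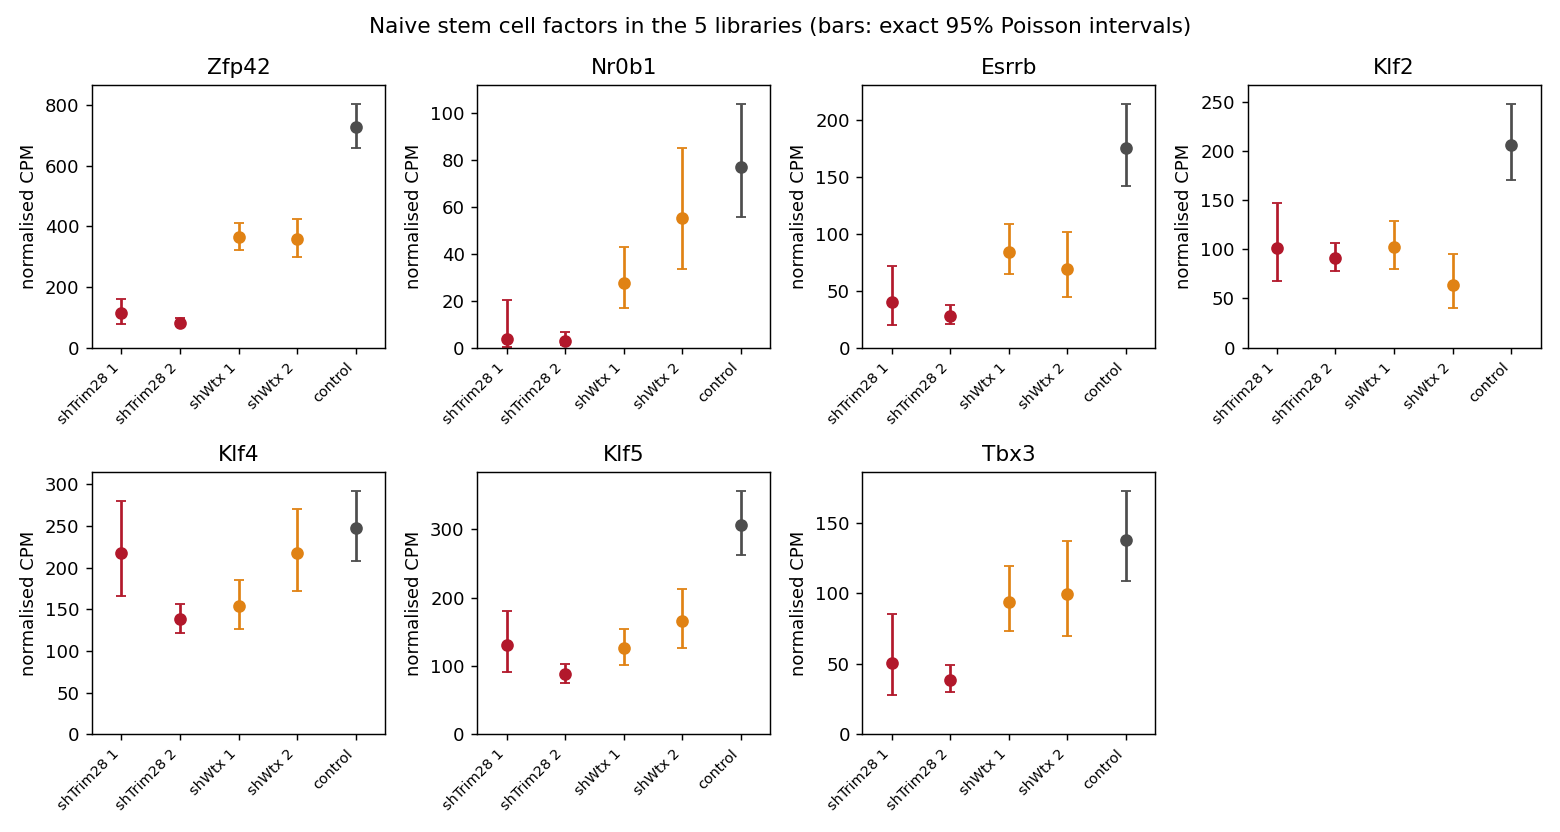
Normalised CPM of the 7 factors (vertical axes, 1 panel per gene, from 0) in the 2 shTrim28 libraries, the 2 libraries labelled shWtx and the control. Points are libraries and bars are exact 95% Poisson intervals; for Zfp42 the shTrim28 points lie at 112 and 82.5 CPM and the control at 729, while for Klf4 the points run from 138 to 247 CPM.

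The stretches of 250 bases upstream of the annotated starts are shown for Zfp42 and Nr0b1, which had the lowest log2 fold changes of the 7, and for Klf2 and Klf4, which had the highest. The sequences are from RefSeq on GRCm38.p6, which held starts for 5 of the 7 factors by symbol, with 2 starts for Esrrb. Capitals mark matches to 8 motifs searched on both strands. They were the octamer of POU factors (ATTTGCAT), the ERR half-site of Esrrb (AAGGTCA), the CACCC box (CCACCC), the GC box (GGGCGGG), the Stat site (TTCCNGGAA), a Sox site (CATTGTT), a T-box half-site (AGGTGTGA) and the TATA box (TATAAA).
Zfp42, chr8:43307010-43307259, minus strand: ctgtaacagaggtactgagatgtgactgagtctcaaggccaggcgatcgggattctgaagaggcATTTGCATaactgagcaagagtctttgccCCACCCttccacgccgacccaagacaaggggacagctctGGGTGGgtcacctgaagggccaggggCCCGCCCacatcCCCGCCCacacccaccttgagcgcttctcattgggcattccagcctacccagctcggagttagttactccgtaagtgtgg
Nr0b1, chrX:86191525-86191774, plus strand: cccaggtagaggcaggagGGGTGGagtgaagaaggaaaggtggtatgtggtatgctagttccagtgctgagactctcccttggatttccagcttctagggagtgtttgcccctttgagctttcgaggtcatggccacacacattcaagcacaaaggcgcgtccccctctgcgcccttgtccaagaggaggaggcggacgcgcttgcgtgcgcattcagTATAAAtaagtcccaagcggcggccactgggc
Klf2, chr8:72318812-72319061, plus strand: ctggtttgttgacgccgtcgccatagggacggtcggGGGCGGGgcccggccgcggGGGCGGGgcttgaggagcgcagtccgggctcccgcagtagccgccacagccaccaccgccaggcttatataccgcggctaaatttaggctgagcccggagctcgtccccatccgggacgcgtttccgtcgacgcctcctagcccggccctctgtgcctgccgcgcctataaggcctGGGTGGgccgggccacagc
Klf4, chr4:55532476-55532725, minus strand: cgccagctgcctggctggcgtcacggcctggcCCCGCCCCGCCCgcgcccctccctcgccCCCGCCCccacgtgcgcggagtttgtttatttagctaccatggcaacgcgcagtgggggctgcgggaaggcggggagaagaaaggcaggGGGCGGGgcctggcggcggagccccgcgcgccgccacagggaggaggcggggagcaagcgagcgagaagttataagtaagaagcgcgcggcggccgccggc
The Zfp42 stretch holds an octamer 186 to 179 bases before the start, a motif found in 1.6% of the 32851 promoters of this length, and it also holds CACCC and GC boxes. The Nr0b1 stretch holds a CACCC box and a TATA box 32 to 27 bases before the start. The Klf2 and Klf4 stretches hold GC boxes, of which 2 overlap in Klf4, and Klf2 holds a CACCC box. Over all promoters, 28.1% held a CACCC box, 23.4% a GC box and 12.4% a TATA box. Of the 6 stretches of the factors, 5 held a CACCC box, 3 a GC box, 1 an octamer and 1 a TATA box. The Stat site, the Sox site, the ERR half-site and the T-box half-site, found in 0.913%, 3.29%, 4.08% and 1.12% of all promoters, were not among these letters in any of the 6. Bases G and C made up 58.4% of the Zfp42 stretch, 57.2% of Nr0b1, 71.2% of Klf2 and 74.0% of Klf4, against a median of 52.4% over all promoters.

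The second comparison set the libraries labelled shWtx against the control. Of the 7 factors, 4 fell, namely Zfp42, Esrrb, Klf2 and Klf5. Of all genes tested, 15.8% passed, with 4.94% lower and 10.9% higher. The lower share was 5.34% of those of 20 to 400 CPM. All 7 factors stood lower in both libraries labelled shWtx than in the control, as did 40.3% of all genes and 46.9% of those of 20 to 400 CPM. The median log2 fold change was −1.01 over the 7 factors and 0.06 over all genes. It was −0.42 over the 1356 genes of 100 to 400 CPM, which include Zfp42, Klf2, Klf4 and Klf5, and −0.19 over those of 50 to 100 CPM, which include Esrrb and Tbx3.

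The 4 that fell did so by similar amounts. The log2 fold change was −1.01 for Zfp42 (SE 0.26, adjusted p = 0.00882), −1.17 for Esrrb (SE 0.32, adjusted p = 0.0139), −1.26 for Klf2 (SE 0.32, adjusted p = 0.00748) and −1.10 for Klf5 (SE 0.30, adjusted p = 0.0128). Nr0b1 had −0.99 (SE 0.43, adjusted p = 0.117), with 27.6 and 55.1 CPM in the libraries labelled shWtx. Its value was −0.52 without shWtx replicate 1 and −1.47 without shWtx replicate 2, and it passed without shTrim28 replicate 2 (adjusted p = 0.0464) and with only these 2 groups in the fit (0.0417). Tbx3 had −0.52 (95% interval −1.18 to 0.14, adjusted p = 0.28) and Klf4 −0.44 (95% interval −1.08 to 0.20, adjusted p = 0.35). Klf4 had −0.22 without shWtx replicate 1 and −0.68 without shWtx replicate 2, and with the chemoreceptor level subtracted Klf4 had −0.21 and Tbx3 −0.32. With the chemoreceptor level subtracted in proportion to transcript length, Klf2 alone of the 7 still passed (adjusted p = 0.0315). Zfp42, Esrrb and Klf5 then had log2 fold changes of −0.76, −0.97 and −0.88 with adjusted p = 0.051, 0.0538 and 0.0524. Leaving out either library labelled shWtx also left 1 factor past the threshold, Klf2 without replicate 1 and Klf5 without replicate 2. Leaving out shTrim28 replicate 1 left 0, and the DESeq2 Wald test called Zfp42 alone (adjusted p = 0.0335).

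The third comparison set shTrim28 against the libraries labelled shWtx, and it tests directly whether the factors stood at different levels in the 2 hairpin groups. Zfp42, Nr0b1, Esrrb and Tbx3 were lower in shTrim28 than in the libraries labelled shWtx, while Klf2, Klf4 and Klf5 did not pass. Of all genes tested, 15.3% passed, with 9.83% lower and 5.45% higher, and 11.5% of those of 20 to 400 CPM were lower. The log2 fold changes were −1.97 for Zfp42 (SE 0.25, adjusted p = 2.14e-05), −3.64 for Nr0b1 (SE 0.56, adjusted p = 0.000105), −1.33 for Esrrb (SE 0.32, adjusted p = 0.00555) and −1.20 for Tbx3 (SE 0.30, adjusted p = 0.00707). The shTrim28 libraries stood at 27.0%, 7.78%, 44.4% and 46.4% of the mean level in the libraries labelled shWtx. For these 4 genes both shTrim28 libraries lay below both libraries labelled shWtx, as they did for 27.3% of all genes and 24.2% of those of 20 to 400 CPM.

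The Krüppel-like factors overlapped between these groups. The log2 fold change was 0.14 for Klf2 (95% interval −0.44 to 0.72, adjusted p = 0.774), −0.12 for Klf4 (−0.67 to 0.43, adjusted p = 0.803) and −0.48 for Klf5 (−1.04 to 0.08, adjusted p = 0.228). The value for Klf2 turned to −0.036 with the chemoreceptor level subtracted, and that of Klf4 to 0.10 with no filter on low counts. Klf5 had −0.17 without shTrim28 replicate 2 and −0.72 without shWtx replicate 1. The calls of Zfp42 and Nr0b1 held without shWtx replicate 1, without shWtx replicate 2 and without shTrim28 replicate 2. Those of Esrrb and Tbx3 were lost without shTrim28 replicate 2 (adjusted p = 0.271 and 0.248) and without shWtx replicate 1 (0.165 and 0.0904). With no filter on low counts they were lost as well (0.139 and 0.172), and with the DESeq2 Wald test (0.0953 and 0.104). Without shTrim28 replicate 1, edgeR called 0 of all genes here too (3113 at an unadjusted p under 0.05).

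**Figure D2:**
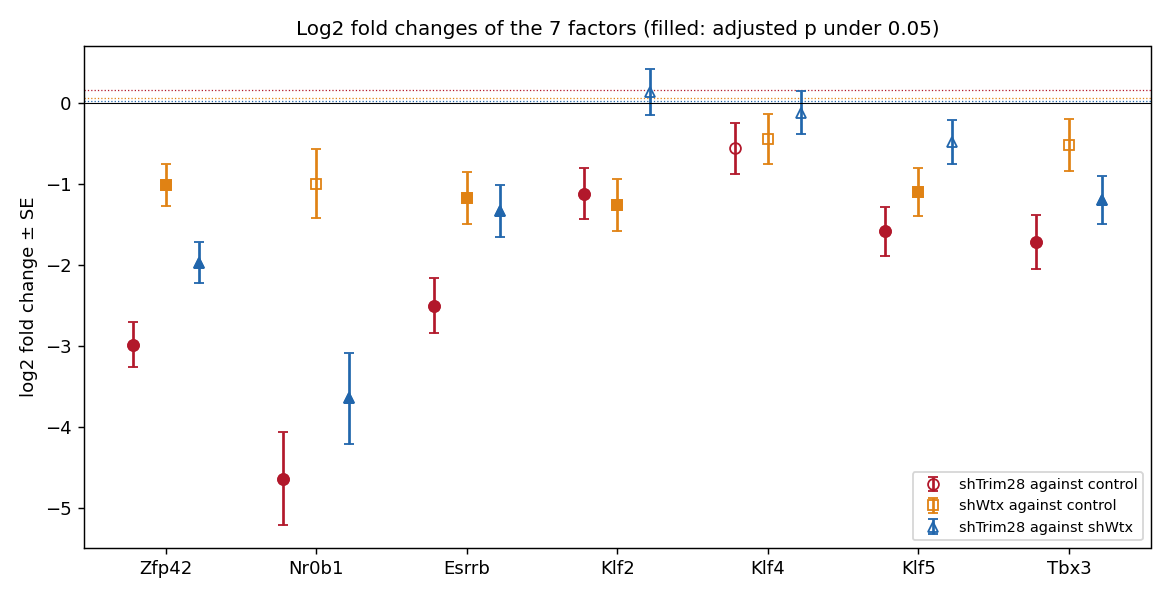
Log2 fold change ± SE (vertical axis) of the 7 factors for shTrim28 against the control (circles), libraries labelled shWtx against the control (squares) and shTrim28 against the libraries labelled shWtx (triangles). Filled symbols passed an adjusted p of 0.05 and dotted lines are the medians of all genes tested; the triangles lie from −3.64 to −1.20 for Zfp42, Nr0b1, Esrrb and Tbx3, and from −0.48 to 0.14 for Klf2, Klf4 and Klf5.

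Hairpins of a target could be set against each other by counts alone, which compares libraries and not conditions. Between shTrim28 replicates, the ratio of replicate 2 to replicate 1 was 0.634 for Klf4 (exact 95% interval 0.476 to 0.856) and 0.674 for Klf5 (0.467 to 0.998), and the intervals of the other 5 factors held 1. Between the libraries labelled shWtx it was 1.42 for Klf4 (1.05 to 1.91), 1.99 for Nr0b1 (1.02 to 3.90) and 0.619 for Klf2 (0.370 to 1.00). The Klf4 ratio was below 1 in one pair and above 1 in the other. The ratio was 0.985 for Zfp42 in the libraries labelled shWtx (0.792 to 1.22) and 0.733 in shTrim28 (0.495 to 1.12).

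Shares of the summed counts of the 7 factors do not depend on how libraries are scaled, and they are not corrected for transcript length. Together the 7 factors stood at 657 and 470 CPM in shTrim28, 951 and 1027 CPM in the libraries labelled shWtx and 1879 CPM in the control. Zfp42 made up 17.1% and 17.6% of that sum in shTrim28, 38.2% and 34.9% in the libraries labelled shWtx and 38.8% in the control. Klf4 made up 33.1% and 29.4% in shTrim28, 16.1% and 21.2% in the libraries labelled shWtx and 13.2% in the control. Zfp42 was therefore the most counted of the 7 in the control and in both libraries labelled shWtx, and Klf4 in both shTrim28 libraries. In shTrim28 there were 1.94 and 1.67 counts of Klf4 per count of Zfp42 (exact 95% intervals 1.23 to 3.09 and 1.36 to 2.07). The libraries labelled shWtx had 0.422 and 0.608 (0.335 to 0.529 and 0.454 to 0.81), against 0.339 in the control (0.277 to 0.412). The shTrim28 intervals lay above all others, and the interval of shWtx replicate 1 overlapped that of the control. Nr0b1 made up 0.552% and 0.597% in shTrim28, 2.91% and 5.36% in the libraries labelled shWtx and 4.10% in the control.

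**Figure D3:**
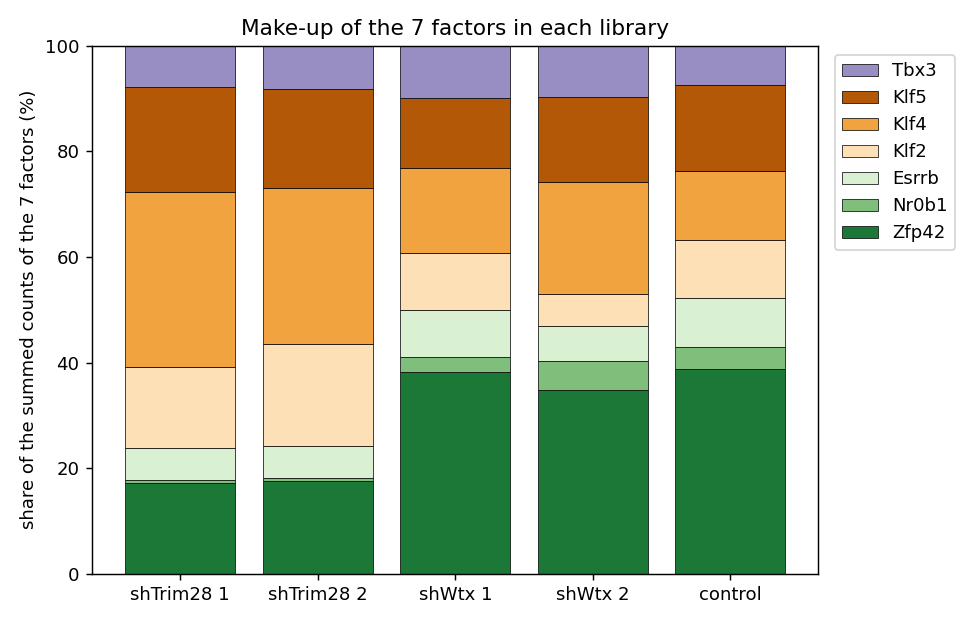
Share of each factor in the summed counts of the 7 factors (vertical axis, %) in each library, shTrim28 left, libraries labelled shWtx in the middle and the control right. Zfp42 takes 17.1% and 17.6% of the bar in shTrim28 and 34.9% to 38.8% in the other 3 libraries, and Klf4 takes 33.1% and 29.4% against 13.2% to 21.2%.

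Some partners of the naive network also fell in shTrim28. The calls on this and the other lists below are those of edgeR, and all of them were lost without shTrim28 replicate 1. For all lists, the shares over all genes tested against the control were 2.26% lower and 4.27% higher in shTrim28. They were 4.94% lower and 10.9% higher in the libraries labelled shWtx. In shTrim28 against the libraries labelled shWtx they were 9.83% lower and 5.45% higher. The DESeq2 Wald test gave many of the list genes no adjusted p, so its counts are given over those that had one. Of 17 listed partners 13 were tested, of which 5 fell and 1 rose relative to the control, with a median log2 fold change of −0.90. Those that fell were the core factors Pou5f1 (−1.80, adjusted p = 5.48e-05), Sox2 (−1.31, adjusted p = 0.00763) and Nanog (−1.13, adjusted p = 0.0226), the threonine dehydrogenase Tdh (−2.12, adjusted p = 0.000249) and the Myb family factor Mybl2 (−1.99, adjusted p = 0.00015). Pou5f1 had 298 and 212 CPM in shTrim28, 523 and 507 CPM in the libraries labelled shWtx and 856 CPM in the control. The zinc finger factor Zfx rose (1.77, adjusted p = 0.0398) from 8 counts in the control. No partner was called higher with DESeq2 size factors, quantile normalization, no filter on low counts, the DESeq2 Wald test or the chemoreceptor level subtracted. Sox2 and Nanog were lost with no filter on low counts (adjusted p = 0.171 and 0.352) and Nanog without shTrim28 replicate 2 (0.0792). The DESeq2 Wald test called 3 of the 7 partners with an adjusted p. Tfcp2l1, a Stat3 target listed as Tcfcp2l1, had 120 and 36.5 CPM in shTrim28, 162 and 129 CPM in the libraries labelled shWtx and 113 CPM in the control. It was lower in shTrim28 than in the libraries labelled shWtx (−1.28, adjusted p = 0.0164), as were Pou5f1 (−1.06), Tdh (−1.53), Mybl2 (−1.34) and the growth factor gene Fgf4 (−1.68, adjusted p = 0.0491). These 5 calls were lost with no filter on low counts, without shTrim28 replicate 2 and without shWtx replicate 1. The DESeq2 Wald test called 3 of the 9 partners with an adjusted p in this comparison. In the libraries labelled shWtx against the control, edgeR called 0 of the 13 (4 at an unadjusted p under 0.05), with a median of −0.26. The DESeq2 Wald test called 0 of the 11 with an adjusted p there. With DESeq2 size factors, edgeR called 2, with a median of −0.30.

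Of 12 LIF pathway genes tested, 1 fell in shTrim28, the kinase gene Pim3, a Stat3 target. The median of the 12 was 0.11, and −0.055 with quantile normalization. Pim3 had 43.5 and 39.8 CPM in shTrim28, 37.3 and 60.6 CPM in the libraries labelled shWtx and 118 CPM in the control. Its log2 fold change was −1.53 in shTrim28 (adjusted p = 0.00772) and −1.34 in the libraries labelled shWtx (adjusted p = 0.0124). In shTrim28 the call was lost with no filter on low counts (adjusted p = 0.123), and DESeq2 gave it no adjusted p. Socs3, the feedback inhibitor of the pathway, fell in the libraries labelled shWtx (−1.23, adjusted p = 0.0244). In those libraries the median of the 12 was −0.59, and −0.40 with the chemoreceptor level subtracted. Over all genes tested, the median there was −0.19 at 50 to 100 CPM and −0.42 at 100 to 400 CPM. There Pim3 and Socs3 were lost without shWtx replicate 1 (adjusted p = 0.205 and 0.203) and with the DESeq2 Wald test (0.259 and 0.323), and Socs3 with no filter on low counts (0.0874) and with the chemoreceptor level subtracted (0.0681). Stat3 had 83.5 and 94.3 CPM in shTrim28, 44.2 and 30.3 CPM in the libraries labelled shWtx and 66.3 CPM in the control. Stat3 and Jak1 were higher in shTrim28 than in the libraries labelled shWtx (1.22, adjusted p = 0.00826, and 1.15, adjusted p = 0.00618), and neither passed against the control. Both calls were lost with the DESeq2 Wald test and when any one of the 4 hairpin libraries was left out.

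Of 12 genes of the FGF and ERK pathway, 3 fell in shTrim28, the inhibitor gene Spry4 (−1.73, adjusted p = 0.0173) and the ETS factor genes Etv4 (−1.54, adjusted p = 0.0189) and Etv5 (−1.10, adjusted p = 0.0441), all known targets of ERK signalling. The median of the 12 was −0.24. All 3 calls were lost with no filter on low counts (adjusted p = 0.0614, 0.215 and 0.443) and without shTrim28 replicate 2 (0.0887, 0.252 and 0.122), Etv5 was also lost without shWtx replicate 1 (0.056), and DESeq2 gave none of the 3 an adjusted p. In the libraries labelled shWtx 3 fell as well, Etv5 (−1.80, adjusted p = 0.000932), the phosphatase gene Dusp6 (−1.47, adjusted p = 0.0121) and the kinase gene Mapk3 (−1.70, adjusted p = 0.0159). The DESeq2 Wald test called 0 of the 11 with an adjusted p there (0.0622, 0.218 and 0.205 for these 3). Dusp6 was lost without shWtx replicate 1 (0.205), and Mapk3 without shWtx replicate 2 (0.0567) and with quantile normalization (0.0614). Of 9 primed epiblast genes tested, 4 fell in shTrim28, which were Dnmt3a (−1.81), Dnmt3b (−2.13), Lefty1 (−1.03) and Lefty2 (−1.21). Dnmt3a and Dnmt3b encode DNA methyltransferases, and the Lefty genes encode Nodal antagonists. The activin antagonist gene Fst rose (2.12, adjusted p = 0.0234). Fst was lost without shTrim28 replicate 2 (adjusted p = 0.0832) and with quantile normalization (0.163). Lefty1 and Lefty2 were lost with no filter on low counts (0.411 and 0.291) and with the DESeq2 Wald test (0.101 and 0.0844), which called Dnmt3a and gave Dnmt3b and Fst no adjusted p. In the libraries labelled shWtx 3 of the 9 fell, which were Dnmt3a (−0.99), Dnmt3b (−1.13) and Lefty1 (−1.50). Lefty1 held with quantile normalization, no filter, the DESeq2 Wald test, the chemoreceptor level subtracted and without either shWtx library, and Dnmt3a and Dnmt3b were lost in each of these. Otx2, a defining factor of the primed state, stood at 3.63 and 3.93 CPM in shTrim28 and 20.7 and 19.3 CPM in the libraries labelled shWtx. It stood at 8.95 CPM in the control, and it did not pass against the control. These levels rest on few counts, 1 in shTrim28 replicate 1 and 5 in the control.

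Relatives of the 7 factors by family gave few calls. Of 14 other KLF and SP genes tested in shTrim28, edgeR called 0 (2 at an unadjusted p under 0.05) with a median of −0.30, and the DESeq2 Wald test called 0 of the 4 with an adjusted p. In the libraries labelled shWtx 1 rose, Klf11, with 56 counts over 2 libraries against 3 in the control, a ratio of 9.59 (exact 95% interval 3.12 to 47.9). That call was lost without shWtx replicate 1 (adjusted p = 0.136), with quantile normalization (0.099) and with the DESeq2 Wald test (0.0849). Klf11 was also lower in shTrim28 than in the libraries labelled shWtx (−1.27, adjusted p = 0.0262), a call lost with no filter on low counts, without shTrim28 replicate 2 and without shWtx replicate 1. In that comparison the DESeq2 Wald test called 0 of the 5 KLF and SP genes with an adjusted p. Of 16 other nuclear receptor genes, the retinoic acid receptor gene Rarg fell in shTrim28 (−1.95, adjusted p = 0.000405) and in the libraries labelled shWtx (−0.96, adjusted p = 0.0476), and Nr2f1, a receptor of neural and mesenchymal cells, rose in shTrim28 (1.32, adjusted p = 0.0383). Nr2f1 was lost with DESeq2 size factors (adjusted p = 0.0554), quantile normalization (0.0701) and no filter (0.172), and without shTrim28 replicate 2 (0.058) or shWtx replicate 1 (0.0656). In shTrim28 DESeq2 gave neither gene an adjusted p. In the libraries labelled shWtx Rarg was lost without either of them, with quantile normalization, with no filter, with the chemoreceptor level subtracted and with the DESeq2 Wald test (adjusted p between 0.0936 and 0.402). Of 5 other T-box genes tested, edgeR called 0 in each comparison (0 in shTrim28 and 1 in the libraries labelled shWtx at an unadjusted p under 0.05). The DESeq2 Wald test gave 0 of the 5 an adjusted p in shTrim28 and did not call the 1 that had one in the libraries labelled shWtx. Yy1, the relative of Zfp42, had 68.9 and 81.9 CPM in shTrim28, 44.2 and 30.3 CPM in the libraries labelled shWtx and 66.3 CPM in the control. Rlim, the ubiquitin ligase that marks the Zfp42 protein for degradation, had a log2 fold change of 0.23 in shTrim28 (adjusted p = 0.762).

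**Figure D4:**
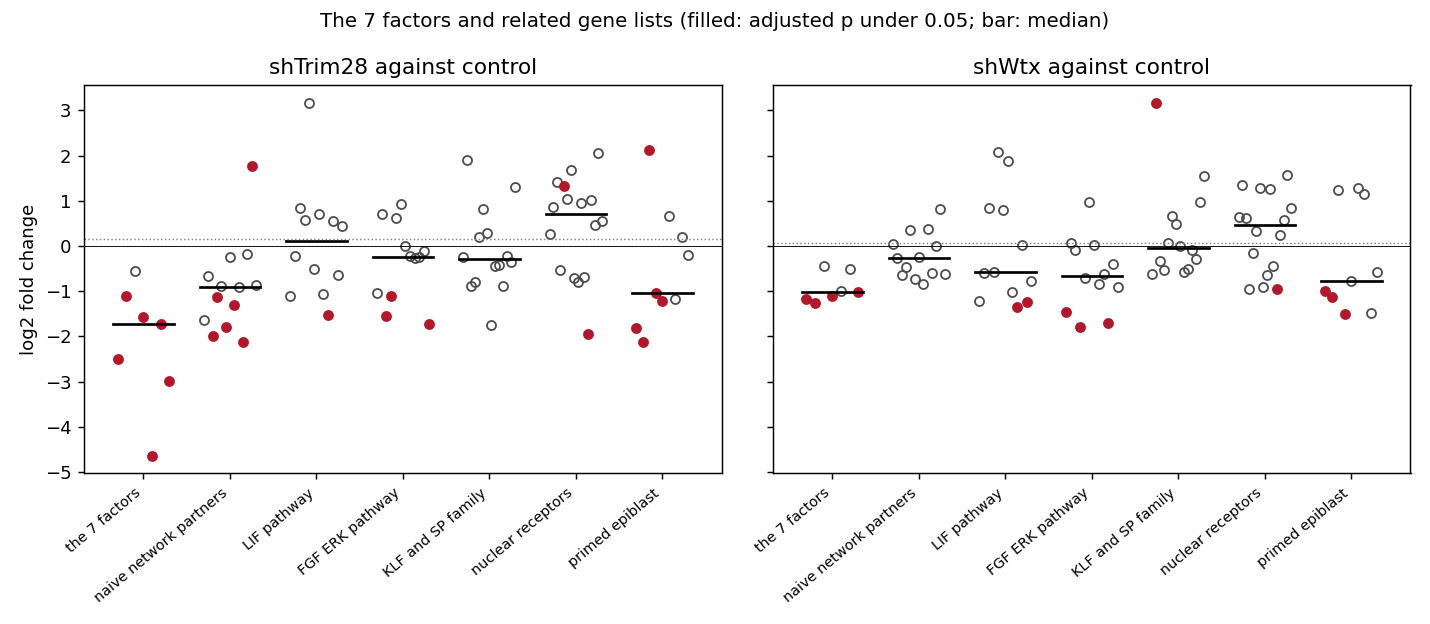
Log2 fold change (vertical axis) of the 7 factors and of 6 related gene lists in shTrim28 against the control (left) and in the libraries labelled shWtx against the control (right), 1 circle per gene tested. Filled circles passed an adjusted p of 0.05, bars are list medians and the dotted line is the median of all genes; in shTrim28 the bars stand at −1.72 for the 7 factors, −0.90 for their partners and 0.11 for the LIF pathway.

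Some markers of other cell types were also called. Of all genes tested against the control, 4.27% were called higher in shTrim28 and 10.9% in the libraries labelled shWtx. Of 18 fibroblast genes tested, 9 rose in shTrim28, with a median of 1.23. In the libraries labelled shWtx 3 rose and 1 fell, with a median of 0.25. These counts became 1 and 1 with quantile normalization, and 2 and 1 with no filter. Of the 16 with an adjusted p there, the DESeq2 Wald test called 2 higher and 0 lower. The 9 became 6 with no filter or without shWtx replicate 1, and the DESeq2 Wald test called 5 of the 8 with an adjusted p. Of 7 trophoblast genes, 5 rose in shTrim28 and 1 rose in the libraries labelled shWtx. The 5 became 2 with quantile normalization or without shTrim28 replicate 2, and 3 with no filter or without shWtx replicate 1, and the DESeq2 Wald test called the 1 gene with an adjusted p. The 1 in the libraries labelled shWtx was lost with quantile normalization and without shWtx replicate 1, and DESeq2 gave it no adjusted p. The trophoblast list summed to 2605 and 2967 CPM in shTrim28, 1345 and 1498 CPM in the libraries labelled shWtx and 1125 CPM in the control. Of 10 primitive endoderm genes, 1 rose in shTrim28, the receptor gene Pdgfra (1.81, adjusted p = 0.00632), which fibroblasts also express. DESeq2 gave it no adjusted p. The part of these cells in the lower levels of the naive factors was not tested.

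Genes were ranked by likeness to each factor as the Euclidean distance between log2 CPM profiles over the 5 libraries, each centred on its own mean, among 6922 genes with a symbol and at least 20 CPM on average. The nearest to Zfp42 were Chrna1 (distance 0.346), Utf1 (0.665) and Tcf15 (0.782), where the median gene stood at 2.79. Utf1 is a chromatin factor of stem cells, and Chrna1 encodes a subunit of the muscle acetylcholine receptor. The nearest to Nr0b1 were the hairpin target Trim28 itself (0.684), Zfp42 (1.23) and Chrna1 (1.37). Esrrb lay nearest to Cisd3 (0.304), E130012A19Rik (0.351) and Hsd17b14 (0.416). Tbx3 lay nearest to the heat shock protein gene Hspb1 (0.0445), Pou5f1 (0.222) and the chromatin assembly gene Chaf1b (0.285). Klf2 lay nearest to Cpsf3l (0.2), Tmem93 (0.226) and the DNA polymerase subunit gene Pold2 (0.237), where the median gene stood at 1.37. Klf4 lay nearest to Cntd1 (0.157), Ube2j2 (0.159) and Tbrg1 (0.208), and Klf5 to Sssca1 (0.243), Tmem206 (0.244) and Rabggta (0.249). Among the 7 factors themselves, Esrrb and Tbx3 were the closest pair (0.678) and Nr0b1 and Klf2 the farthest (3.43). The 5 libraries include 1 control, so these distances describe the profiles and were not tested.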

How the data were processed

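RNA of 5 ES-D3 libraries was read by single-molecule sequencing, and reads were aligned to RefSeq, per the labels' design text. The build was mm9, per the submitters' processing notes. The aligner, counting program and strand setting were not given in the sources used here. The authors deposited estimated counts per gene, without scaling between libraries. These were rounded to whole numbers, and a row was kept by filterByExpr of edgeR 4.0.16 (R 4.3.3). Genes were tested by edgeR's quasi-likelihood method after TMM scaling of all 5 libraries, without covariates, two-sided, with 2 residual degrees of freedom moderated across genes. The control was 1 library and was assumed to vary like the pairs. SEs are the log2 fold change divided by the square root of F and are approximate. Alternatives used DESeq2 1.42.0, limma 3.58.1, other filters and scalings, and libraries left out. Transcript lengths came from GENCODE, with 19154 rows matched. The script was tested on simulated data for shTrim28 against the control. It called 22.2% of genes with a true log2 fold change of size 1 and 78.2% of those of size 2. Named genes were the 7 factors, the hairpin targets, called genes of fixed lists (at most 6 a list) and the 3 nearest profiles of each factor. The called genes of the fibroblast and trophoblast lists were counted and not named. Otx2 and Rlim were named after their values were seen. The members and lists were chosen with earlier results of these data known.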

Additional observations from a re-analysis of the deposited data

Results flagged for a closer look

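The level relative to the control differed between the 2 hairpin groups for 4 of the 7 factors, by the direct test of shTrim28 against the libraries labelled shWtx with edgeR. The difference in log2 fold change was −1.97 for Zfp42 (adjusted p = 2.14e-05), −3.64 for Nr0b1 (adjusted p = 0.000105), −1.33 for Esrrb (adjusted p = 0.00555) and −1.20 for Tbx3 (adjusted p = 0.00707). Of all genes tested, 9.83% were called lower in this test, as were 11.5% of those of 20 to 400 CPM. In each of the 4, both shTrim28 libraries lay below both libraries labelled shWtx, as they did for 27.3% of all genes. The calls of Esrrb and Tbx3 were lost with no filter on low counts (adjusted p = 0.139 and 0.172). They were also lost with the DESeq2 Wald test (0.0953 and 0.104), which gave Nr0b1 no adjusted p. Without shTrim28 replicate 2 the log2 fold changes of Esrrb and Tbx3 were −1.01 and −0.959. The calls of all 4 factors were lost without shTrim28 replicate 1. Their log2 fold changes were then −2.12 for Zfp42, −3.68 for Nr0b1, −1.46 for Esrrb and −1.30 for Tbx3. A lower level of Wtx was not seen in the libraries labelled shWtx, and the part of feeder cells was not tested.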

How the results depend on the processing

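The control was a single library, so its own spread is unknown, and Nr0b1 rests on 1 and 5 counts in shTrim28. No paired analysis was possible because the labels give the hairpins no shared replicate numbers. In shTrim28 against the control the main test called 710 genes and 6 factors. It called 319 genes with no filter, and the DESeq2 Wald test called 278 genes and 3 factors, with no adjusted p for Nr0b1 and Esrrb. Leaving out 1 library gave 0 to 798 genes (394 without shWtx replicate 1) and 0 to 6 factors. In the libraries labelled shWtx against the control the counts were 1721 genes and 4 factors. They were 1143 and 1 with no filter, 548 and 1 with the DESeq2 Wald test, 794 and 1 with the chemoreceptor level subtracted, 671 genes with quantile normalization, and 0 to 2340 genes and 0 to 5 factors with 1 library left out (469 genes without shWtx replicate 1). In shTrim28 against the libraries labelled shWtx they were 1662 genes and 4 factors, with 912 and 2 with no filter, 400 and 1 with the DESeq2 Wald test (no adjusted p for Nr0b1), and 0 to 1470 and 0 to 4 with 1 library left out (204 genes without shWtx replicate 1, 452 without shTrim28 replicate 2 and 1100 without shWtx replicate 2). The count of 0 came without shTrim28 replicate 1 in all 3 comparisons. In that comparison the log2 fold change of Klf4 turned to 0.10 with no filter, and ran from −0.40 without shWtx replicate 1 to 0.13 without shWtx replicate 2 and 0.22 without shTrim28 replicate 2. That of Klf2 turned to −0.036 with the chemoreceptor level subtracted and ran from −0.12 without shWtx replicate 2 to 0.54 without shWtx replicate 1. The causes were not tested. Calls in shTrim28 against the control were 464 higher and 246 lower, 390 and 336 with DESeq2 size factors, and 204 and 302 with quantile normalization, which put the all-gene median at −0.03 in place of 0.16, and at −0.20 in place of 0.06 in the libraries labelled shWtx. The 7 factors then had medians of −1.67 and −0.92. Against the control, every factor kept a negative log2 fold change under every alternative run.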
